A study of Bos taurus with 20 samples.

Results

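Integrins, cadherins, protocadherins and laminins hold cells to their matrix and to each other, and their genes were followed here through the development of cattle muscle. A gene was included if its symbol in the platform annotation started with ITGA, ITGB, PCDH, LAMA, LAMB or LAMC, or was CDH followed by a number. It was described through its array row with the highest mean over all columns. The rule found 62 of 11329 named genes, which were 8 laminin chains, 18 integrin chains, 3 genes whose ITGB symbol does not stand for an integrin chain, 20 cadherins and 13 protocadherins.

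The tissue was longissimus dorsi (LD), a long muscle beside the spine. Animals came from 2 crosses with Hereford, 1 by Piedmontese and 1 by Wagyu, so Hereford is a parent breed of both. Piedmontese cattle are bred for muscle mass, and Wagyu beef is known for its marbling. Each cross was sampled at 60, 135, 195 and 280 days of gestation and at 3, 7, 12, 20, 25 and 30 months after birth. The table holds 20 columns, 1 for each cross at each age, and a column stands for 3 animals before birth and 4 after it. No cross was therefore replicated at an age, and each age had its 2 crosses as samples, so that p-values measure only the spread between these columns. Whether 1 animal was sampled at several ages is not stated, nor is the sex of the animals.

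In all, 72 animal samples were run on 36 arrays of 9 slides, and their number limits the precision. Slides numbered 3 for the fetal samples, 4 for 3 to 20 months and 2 for 25 and 30 months, with 0 slides shared between these sets. A difference across birth therefore cannot be told apart from a difference between slides. The same holds between 20 and 25 months and for 30 against 3 months. Muscle fibre markers, averaged over 7 measured genes, lay between 14.04 and 18.83 in the columns of 60 to 195 days, between 19.29 and 19.73 at 280 days and between 19.28 and 19.89 after birth. In whole tissue, fewer cells of a type and less RNA per cell cannot be told apart. Values are on the deposited scale, which was read as log2, and differences are given in log2 units of that scale and not as folds. The value behind ± is the standard error from limma, and a difference passed where its p-value, adjusted by Benjamini-Hochberg over all 21475 array rows, was under 0.05.

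Laminins are trimers of an alpha, a beta and a gamma chain and form the backbone of the basement membrane, the sheet of matrix that wraps every muscle fibre. Integrins are pairs of an alpha and a beta chain that span the cell membrane and tie such matrix to the cytoskeleton, and cadherins bind cells to each other in the presence of calcium. In muscle, laminin with the LAMA2 chain and the integrin of ITGA7 and ITGB1 anchor the fibre to its sheath, while M-cadherin (CDH15) and N-cadherin (CDH2) sit on myoblasts and on satellite cells, the stem cells of the fibre.

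As deposited, most of these genes were highest in the fetus. By mean over the crosses, 52 of 62 peaked at 60, 135 or 195 days, 29 of them at 60 days, while 2 peaked at 280 days and 8 after birth. Peak ages were not counted over all rows or after scaling of the columns, and comparisons between ages shifted with scaling, as given below. The range of a gene over the 10 ages ran from 0.73 to 8.49 log2 units, with a median of 2.70. The map of all values by column shows the 60- to 195-day columns standing above the rest for most genes in both crosses.

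**Figure D1:**
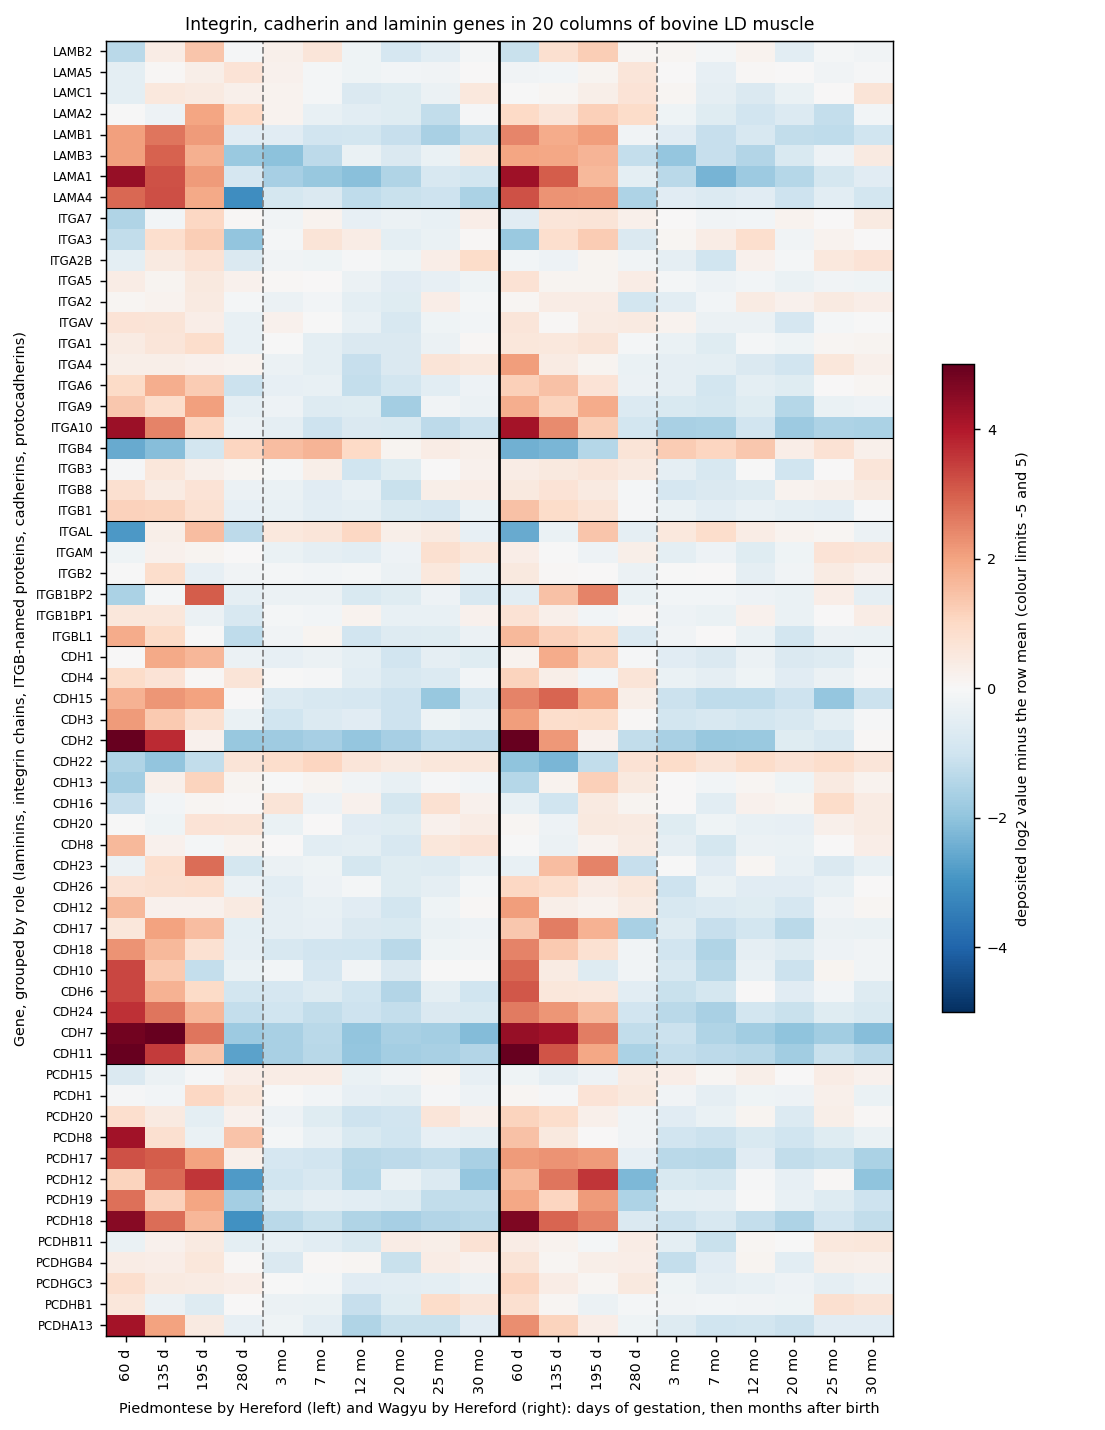
Heat map of the 62 genes (rows, grouped by role) in the 20 columns, with the Piedmontese cross at left and the Wagyu cross at right and ages running from 60 days to 30 months; colour is the deposited log2 value minus the mean of the row, and dashed lines mark birth. Rows turn from red to blue between 195 and 280 days for most genes, and ITGB4 and CDH22 run the other way.

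At 280 days against 60 days, 36 of 62 genes were lower (58.1%, against 42.4% of all array rows) and 11 were higher (17.7%, against 18.6% of all rows), and 15 did not pass. The median difference was -0.74 over these genes and -0.34 over all rows. At 3 months against 280 days, 11 genes were lower (17.7%, against 14.8% of all rows) and 7 were higher (11.3%, against 13.8%). At 30 months against 3 months, 11 were higher (17.7%, against 18.4% of all rows) and 3 were lower (4.8%, against 3.49%). The mean of the 6 postnatal ages was below that of the 4 fetal ages for 46 genes (74.2%, against 51.3% of all rows) and above it for 5 (8.1%, against 22.2%). The shares were thus near the background for the birth and postnatal comparisons. Every gene that passed in these 4 comparisons had the same sign in both crosses, 47 of 47, 18 of 18, 14 of 14 and 51 of 51. Each tested difference is the mean of the differences in the crosses, so a gene whose crosses disagreed was unlikely to pass. The shared sign is therefore no separate test of agreement between the crosses, and its share among all passing rows is not given.

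Scaling bears on the split between higher and lower. The median of all rows for 280 minus 60 days was -0.34 as deposited, 0.15 after quantile normalisation and 0.89 after each column was centred on its median, and for the postnatal minus the fetal mean these medians were -0.30, 0.00 and 0.32. For 3 months minus 280 days they were -0.14, -0.06 and -0.27, and for 30 minus 3 months 0.31, 0.00 and 0.18. For the prenatal comparison 20 genes were higher and 27 lower after quantile normalisation, and 27 were higher and 22 lower after centring. For the postnatal minus the fetal mean the splits were 11 higher and 38 lower, and 19 higher and 32 lower. For 30 minus 3 months they were 5 higher and 10 lower, and 9 higher and 6 lower, and for 3 months minus 280 days 7 higher and 14 lower, and 5 higher and 18 lower. For 280 minus 60 days the sign turned for 9 of 62 genes after quantile normalisation and for 18 after centring, for 3 months minus 280 days for 9 and 4, for 30 minus 3 months for 14 and 5, and for the postnatal minus the fetal mean for 12 and 18. Without passing as deposited, 7 genes passed for 280 minus 60 days after quantile normalisation and 13 after centring.

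**Figure D2:**
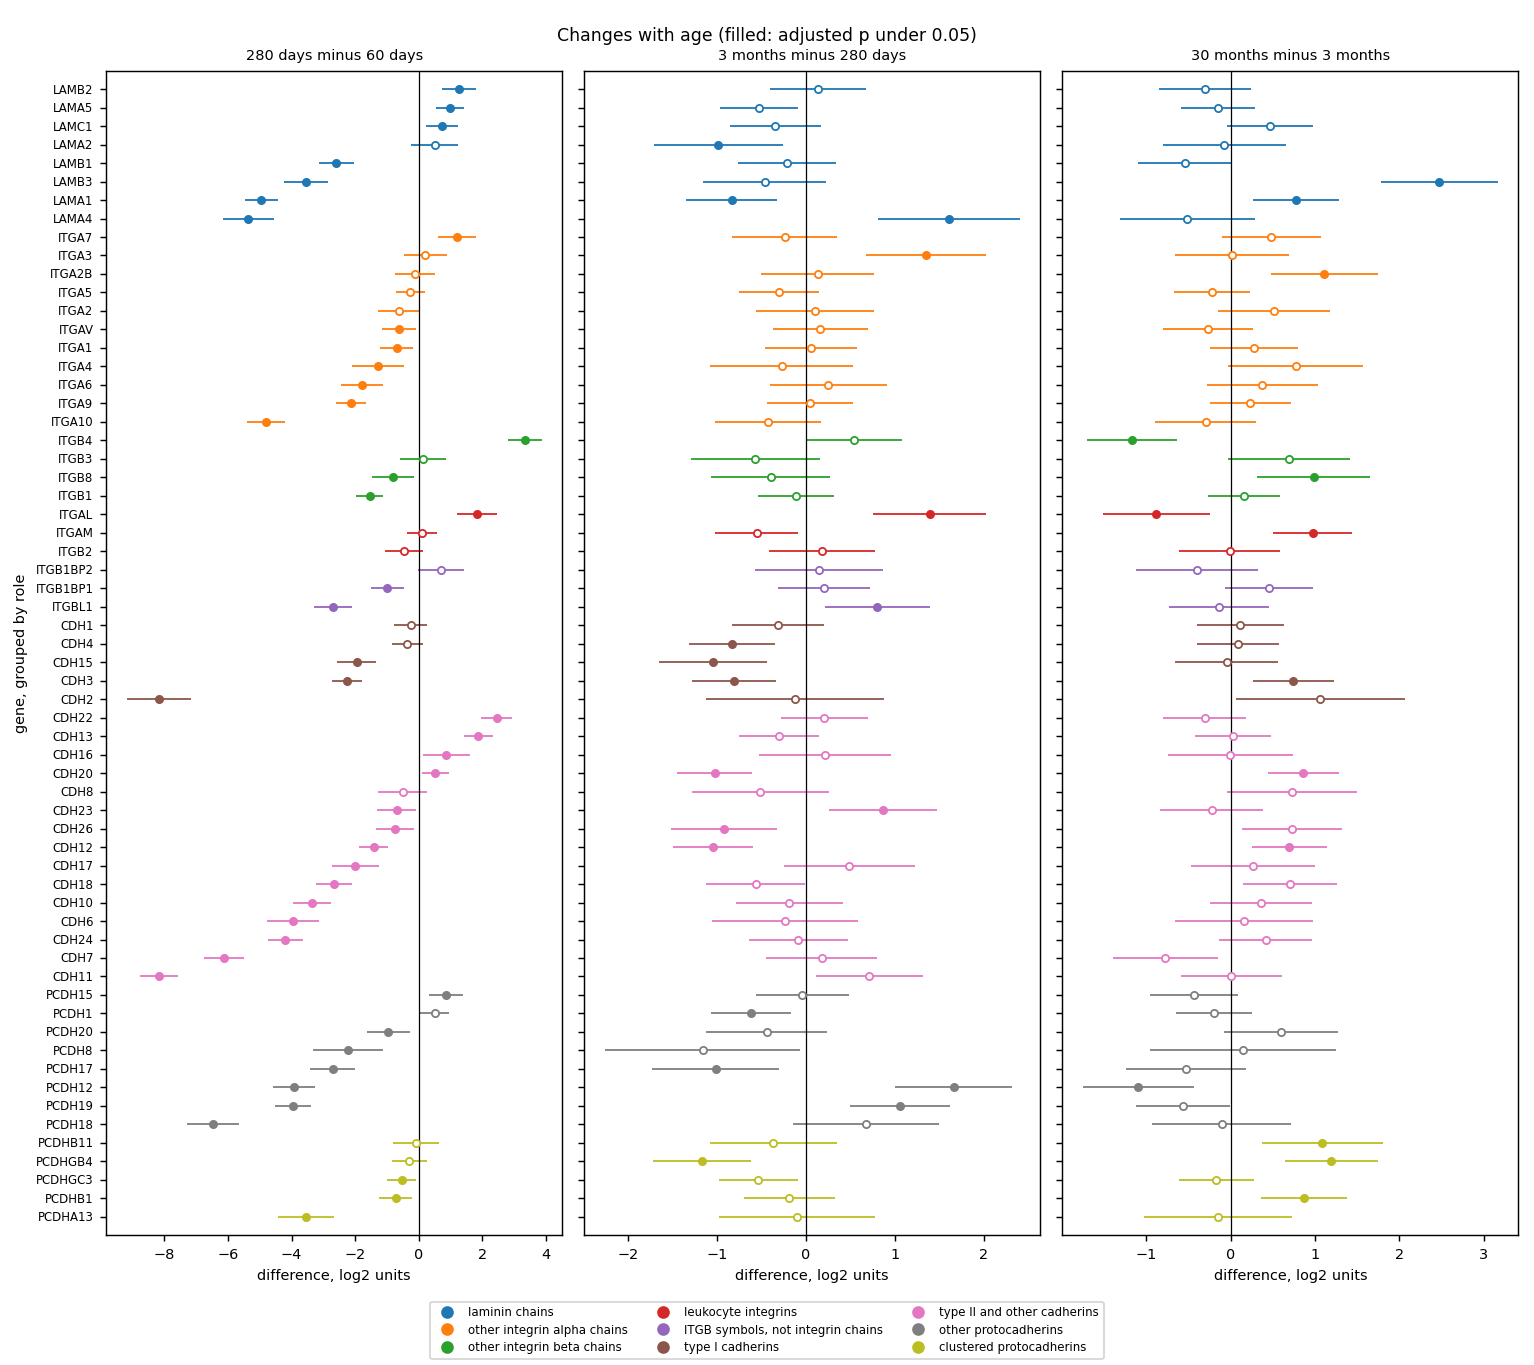
Differences between ages in log2 units (horizontal axes, each panel with its own scale) for the 62 genes (vertical axis), for 280 minus 60 days, 3 months minus 280 days and 30 minus 3 months; bars are 95% intervals of the limma estimate, filled points passed at an adjusted p under 0.05, and colours mark the role. The prenatal panel reaches -8.18 for CDH2, while the passing differences of the other panels lie between -1.17 and 2.47.

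The laminin chains parted between 60 and 280 days. Of 8 chains, LAMA4, LAMA1, LAMB3 and LAMB1 fell, LAMB2, LAMA5 and LAMC1 rose, and LAMA2 did not pass. These 7 directions were the same after quantile normalisation and after centring. The postnatal mean was below the fetal mean for 7 of the 8 chains, with 1 higher and 6 lower after quantile normalisation and 3 higher and 5 lower after centring.

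LAMA2 is the alpha chain of the laminin around mature muscle fibres, and its loss in humans causes a congenital muscular dystrophy. LAMA2 read 12.97, 12.73, 14.98 and 14.01 before birth and 13.19, 12.64, 12.49, 12.41, 11.76 and 12.96 after it in the Piedmontese cross. LAMA2 in the Wagyu cross read 13.99, 13.61, 14.19 and 13.93 before birth and 12.77, 12.39, 12.03, 12.32, 11.80 and 12.86 after it. Both crosses were highest at 195 days and lowest at 25 months, and the fetal and postnatal columns overlapped. The difference between 280 and 60 days was 0.49 ± 0.34 (adjusted p = 0.230) as deposited and 1.72 after centring (adjusted p = 0.00120), and between 195 and 135 days it rose by 1.42 ± 0.34 (adjusted p = 0.0104). The postnatal mean fell by 1.33 ± 0.16 against the fetal mean (adjusted p = 5.49e-07). The lower value at 3 months than at 280 days, -0.99 ± 0.34 (adjusted p = 0.0402), missed the threshold when any of the 4 columns was left out, with adjusted p of 0.0599 without Piedmontese 3 months, 0.270 without Wagyu 3 months, 0.132 without Piedmontese 280 days and 0.104 without Wagyu 280 days.

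LAMA4, the alpha chain of blood vessel basement membranes, had the largest prenatal fall among the laminins. LAMA4 read 15.48, 15.84, 14.48 and 9.48 before birth and 11.70, 11.86, 11.31, 11.49, 11.55 and 11.02 after it in the Piedmontese cross. LAMA4 in the Wagyu cross read 15.79, 14.83, 14.80 and 11.05 before birth and 12.04, 11.93, 12.02, 11.55, 12.09 and 11.69 after it. All columns up to 195 days lay above all later ones, and the lowest value was that of the Piedmontese column at 280 days. LAMA4 fell by 5.36 ± 0.38 between 60 and 280 days (adjusted p = 1.53e-09), of which the step after 195 days made up 4.37 ± 0.38. It then rose by 1.61 ± 0.38 from 280 days to 3 months (adjusted p = 0.00504). Without the Piedmontese 280-day column that rise was 0.93 (adjusted p = 0.100). A second, dimmer row of the gene had a prenatal difference of -1.71 (adjusted p = 1.68e-05) and a birth difference of -0.14 (adjusted p = 0.703). The mean of 8 endothelial markers was 9.60 in Piedmontese and 9.78 in Wagyu at 60 days. It was 11.53 in Piedmontese and 11.32 in Wagyu at 195 days, and 8.97 in Piedmontese and 9.38 in Wagyu at 280 days. This list was higher at 195 than at 60 days while LAMA4 was lower, and both were lower at 280 than at 195 days. Whether vessel content had a part in the change of LAMA4 was not tested.

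LAMA1 is an alpha chain known from the basement membranes of early embryos. LAMA1 read 9.30, 8.14, 7.10 and 4.12 before birth and 3.31, 3.08, 2.86, 3.46, 4.16 and 4.05 after it in the Piedmontese cross. LAMA1 in the Wagyu cross read 9.18, 7.98, 6.57 and 4.45 before birth and 3.59, 2.63, 3.13, 3.53, 4.06 and 4.39 after it. Each fetal step was downward in both crosses, and LAMA1 fell by 4.95 ± 0.24 between 60 and 280 days (adjusted p = 1.47e-11). Its postnatal mean fell by 3.58 ± 0.11 against the fetal mean (adjusted p = 1.60e-14). After birth most of its columns lay below the lower quartile of the array, 14 of 20 in all, so its postnatal differences are between dim signals. Its higher value at 30 than at 3 months, 0.77 ± 0.24, passed (adjusted p = 0.0316), and it missed the threshold with any of the 4 columns left out, with adjusted p from 0.0649 without Piedmontese 30 months to 0.278 without Wagyu 30 months.

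LAMA5, the alpha chain found widely in adult vessels and epithelia, was highest at 280 days. LAMA5 read 4.60, 5.13, 5.40 and 5.78 before birth and 5.31, 4.97, 4.86, 4.94, 4.90 and 5.10 after it in the Piedmontese cross. LAMA5 in the Wagyu cross read 4.93, 4.95, 5.22 and 5.70 before birth and 5.11, 4.66, 5.16, 5.09, 4.92 and 5.01 after it. It rose by 0.97 ± 0.21 before birth (adjusted p = 0.000600). The postnatal minus the fetal mean, -0.21 ± 0.10, did not pass (adjusted p = 0.0588) and was 0.13 after quantile normalisation and 0.41 after centring.

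LAMB1 and LAMB2 are the beta chains of muscle laminins, and in rodents LAMB2 is concentrated at the neuromuscular junction. LAMB1 read 16.09, 16.74, 16.21 and 13.50 before birth and 13.48, 13.11, 13.12, 12.90, 12.44 and 12.81 after it in the Piedmontese cross. LAMB1 in the Wagyu cross read 16.50, 15.92, 16.13 and 13.90 before birth and 13.49, 12.92, 13.25, 12.81, 12.77 and 13.07 after it. The 6 columns of 60 to 195 days, at 15.92 to 16.74, lay apart from all others, and LAMB1 fell by 2.60 ± 0.26 between 60 and 280 days (adjusted p = 1.26e-07). LAMB2 read 13.68, 15.40, 16.41 and 14.99 before birth and 15.28, 15.65, 14.82, 14.20, 14.50 and 14.95 after it in the Piedmontese cross. LAMB2 in the Wagyu cross read 13.92, 15.82, 16.26 and 15.14 before birth and 15.12, 14.93, 15.20, 14.50, 14.94 and 14.85 after it. LAMB2 was lowest at 60 days and highest at 195 days in both crosses, and it rose by 1.26 ± 0.26 between 60 and 280 days (adjusted p = 0.000372). A second, dimmer row of LAMB2 differed by 0.33 over the same span and did not pass (adjusted p = 0.256). The postnatal mean of LAMB2 was lower than the fetal mean by a difference of -0.29 ± 0.12 (adjusted p = 0.0336), which became 0.33 after centring and 0.08 without the 195-day columns, and it missed the threshold without the 135-day (adjusted p = 0.282), 20-month (adjusted p = 0.215), 25-month (adjusted p = 0.0762) or 30-month columns (adjusted p = 0.0515). No direction is therefore given for that comparison.

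LAMB3, the beta chain of the laminin that anchors surface epithelia, fell before birth and rose again in grown animals. LAMB3 read 10.59, 11.46, 10.30 and 6.65 before birth and 6.45, 7.21, 8.19, 7.82, 8.20 and 9.03 after it in the Piedmontese cross. LAMB3 in the Wagyu cross read 10.48, 10.46, 10.22 and 7.31 before birth and 6.58, 7.39, 7.07, 7.78, 8.25 and 8.95 after it. The 12 postnatal columns were lowest at 3 months and highest at 30 months in both crosses, and all stayed below the columns of 60 to 195 days. LAMB3 fell by 3.55 ± 0.33 between 60 and 280 days (adjusted p = 4.72e-08) and rose by 2.47 ± 0.33 between 3 and 30 months (adjusted p = 0.000182). Of the 11 genes higher at 30 than at 3 months it was the 1 gene whose call held with each of the 4 columns left out and under both scalings. On the slides that 3 and 20 months share, it rose by 1.28 ± 0.33 (adjusted p = 0.0325), where 0.913% of all rows were higher. Over 3 to 30 months all 4 adipocyte markers rose, CIDEC (a fat droplet protein) by 6.04 ± 0.44. Of 7 surface epithelium markers TP63 rose by 1.62 ± 0.29 and KRT17 by 1.04 ± 0.31, and the others did not pass. Among those others, the means of KRT5, KRT8 and KRT15 were higher at 30 than at 3 months, and those of EPCAM and KRT14 were lower. After quantile normalisation 1 surface epithelium marker was higher and 1 lower. The part of these adipocyte and epithelium markers in the LAMB3 difference was not tested.

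LAMC1 is the gamma chain that most laminins share. LAMC1 read 6.55, 7.59, 7.48 and 7.30 before birth and 7.23, 6.95, 6.32, 6.45, 6.74 and 7.58 after it in the Piedmontese cross. LAMC1 in the Wagyu cross read 7.02, 7.14, 7.33 and 7.74 before birth and 7.12, 6.59, 6.32, 6.71, 7.05 and 7.71 after it. Its fetal and postnatal columns overlapped, with low values at 60 days and again at 12 and 20 months. LAMC1 rose by 0.73 ± 0.24 between 60 and 280 days (adjusted p = 0.0143), and this missed the threshold without the Piedmontese 60-day column (adjusted p = 0.164) or the Wagyu 280-day column (adjusted p = 0.127). Its postnatal minus fetal difference passed at -0.37 ± 0.11 as deposited but was 0.23 after quantile normalisation and 0.25 after centring, and it missed the threshold without the 12-month columns (adjusted p = 0.0647).

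**Figure D3:**
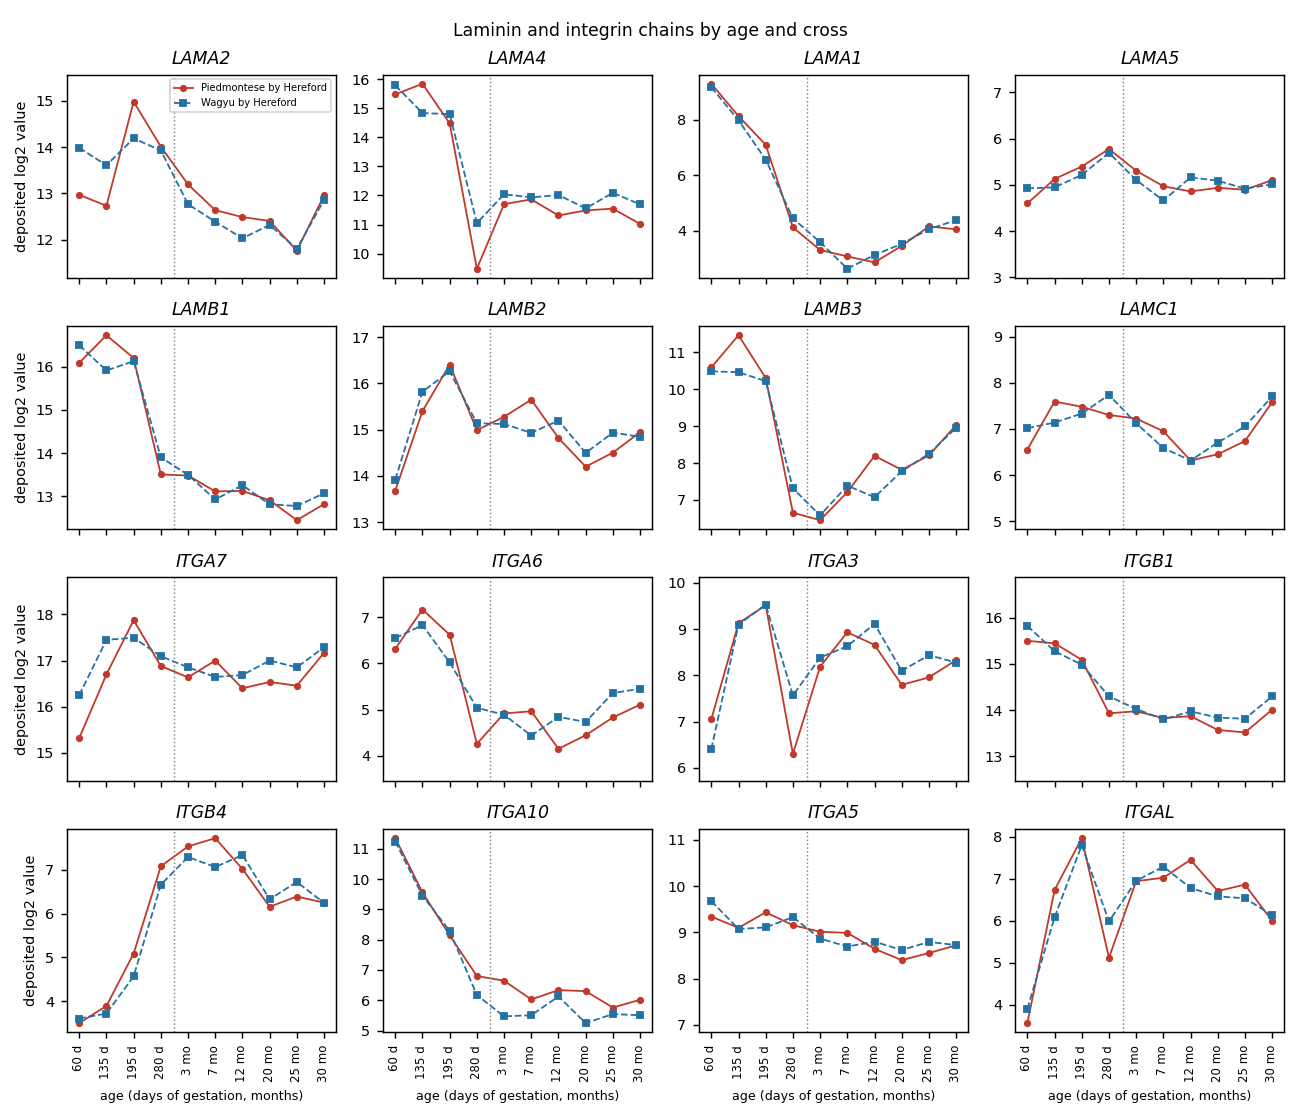
Deposited log2 values (vertical axes, each gene on its own scale) of laminin and integrin chains by age (horizontal axes, 60 days of gestation to 30 months), with Piedmontese by Hereford as red circles and Wagyu by Hereford as blue squares; points are single columns without an error, and the dotted line marks birth. LAMA4, LAMB1 and LAMA1 drop between 195 and 280 days, ITGB4 climbs over the same step, and LAMB3 drops and climbs again after birth.

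Among integrins, the alpha chains that bind laminin behaved differently from each other. ITGA7, the main alpha chain of muscle fibres and the receptor for LAMA2 laminin, rose before birth. ITGA7 read 15.32, 16.70, 17.87 and 16.88 before birth and 16.64, 16.998, 16.40, 16.54, 16.45 and 17.17 after it in the Piedmontese cross. ITGA7 in the Wagyu cross read 16.25, 17.45, 17.49 and 17.09 before birth and 16.85, 16.64, 16.69, 16.999, 16.85 and 17.29 after it. Its lowest columns were those of 60 days and its highest those of 195 days, and postnatal columns lay within the fetal range. The rise between 60 and 280 days was 1.20 ± 0.28 (adjusted p = 0.00116), and 3 months did not pass against 280 days (-0.24 ± 0.28, adjusted p = 0.536). The postnatal minus the fetal mean was -0.09 ± 0.13 (adjusted p = 0.540), -0.39 after quantile normalisation (adjusted p = 0.00794) and 0.53 after centring (adjusted p = 0.00205), so it has no settled direction.

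ITGA6, which pairs with ITGB1 or ITGB4, fell. ITGA6 read 6.31, 7.16, 6.62 and 4.26 before birth and 4.92, 4.96, 4.15, 4.45, 4.83 and 5.11 after it in the Piedmontese cross. ITGA6 in the Wagyu cross read 6.54, 6.83, 6.02 and 5.04 before birth and 4.89, 4.44, 4.84, 4.73, 5.36 and 5.45 after it. The columns from 280 days on, at 4.15 to 5.45, did not overlap with the earlier ones, at 6.02 to 7.16. Between 60 and 280 days ITGA6 fell by 1.78 ± 0.31 (adjusted p = 7.92e-05). ITGA3, a laminin receptor of epithelia, rose by 2.39 ± 0.32 from 60 to 135 days, fell by 2.59 ± 0.32 from 195 to 280 days and rose by 1.35 ± 0.32 from 280 days to 3 months. That last rise was 0.74 without the Piedmontese 280-day column (adjusted p = 0.0972). Between 60 and 280 days ITGA3 differed by 0.21 ± 0.32 (adjusted p = 0.599), with -0.75 in the Piedmontese and 1.16 in the Wagyu cross. This difference was 1.51 after quantile normalisation (adjusted p = 9.89e-05) and 1.44 after centring (adjusted p = 9.65e-05).

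ITGB1 is the beta chain that most integrins of muscle share. ITGB1 read 15.50, 15.44, 15.09 and 13.93 before birth and 13.98, 13.83, 13.87, 13.57, 13.52 and 14.01 after it in the Piedmontese cross. ITGB1 in the Wagyu cross read 15.82, 15.27, 14.98 and 14.30 before birth and 14.02, 13.80, 13.97, 13.84, 13.81 and 14.30 after it. Its columns from 280 days on, at 13.52 to 14.30, lay below all earlier ones, at 14.98 to 15.82. ITGB1 fell by 1.55 ± 0.20 between 60 and 280 days (adjusted p = 3.43e-06), and after centring the difference was -0.32 and missed the threshold (adjusted p = 0.0566). In the birth and postnatal comparisons it differed by -0.11 ± 0.20 (adjusted p = 0.698) and 0.15 ± 0.20 (adjusted p = 0.610).

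ITGB4, known as the partner of ITGA6 in the hemidesmosomes of epithelia, had the largest prenatal rise of the 62 genes. ITGB4 read 3.50, 3.89, 5.08 and 7.08 before birth and 7.53, 7.72, 7.02, 6.16, 6.39 and 6.25 after it in the Piedmontese cross. ITGB4 in the Wagyu cross read 3.60, 3.71, 4.56 and 6.66 before birth and 7.29, 7.06, 7.34, 6.33, 6.72 and 6.24 after it. Columns from 280 days on, at 6.16 to 7.72, stood above those up to 195 days, at 3.50 to 5.08. The rise between 60 and 280 days was 3.32 ± 0.25 (adjusted p = 4.08e-09), while ITGA6 fell over the same span. Between 3 and 30 months ITGB4 fell by 1.17 ± 0.25 (adjusted p = 0.00511), and without the Piedmontese 30-month column the difference was -1.11 (adjusted p = 0.0511). On the slides shared by 3 and 20 months it fell by 1.17 ± 0.25 (adjusted p = 0.0126), where 3.96% of all rows were lower. Of 7 surface epithelium markers 6 fell between 60 and 280 days and TP63 rose by 2.14 ± 0.29. Of 4 Schwann cell and nerve markers PMP2 rose by 3.46 ± 0.31 and S100B by 0.93 ± 0.24, while NEFM fell by 9.16 ± 1.01 and GAP43 by 1.01 ± 0.29. Their part in the ITGB4 rise was not tested.

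Of the collagen-binding alpha chains, ITGA10, known from chondrocytes, fell by 4.81 ± 0.28 between 60 and 280 days (adjusted p = 1.55e-10). Its mean over the crosses was 6.49 at 280 days, against 11.29 at 60 days. The mean of 3 cartilage markers lay at 4.36 in Piedmontese and 4.60 in Wagyu at 280 days, against 12.23 in Piedmontese and 10.96 in Wagyu at 60 days, and their part in the fall was not tested. ITGA1, which binds collagen in the basement membrane, passed as lower (-0.70 ± 0.25), but its difference was -0.10 after quantile normalisation and 0.53 after centring. It also missed the threshold without the Piedmontese 280-day (adjusted p = 0.0950), Piedmontese 60-day (adjusted p = 0.0636) or Wagyu 60-day column (adjusted p = 0.0724). ITGA2, a collagen receptor of platelets and epithelia, lay below the lower quartile of the array in all 20 columns and passed in 0 of the 4 comparisons, though after centring its postnatal minus fetal difference passed at 0.50 (adjusted p = 0.00909).

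ITGA5, the fibronectin receptor chain, showed no settled direction. ITGA5 read 9.34, 9.10, 9.43 and 9.16 before birth and 9.01, 8.99, 8.64, 8.40, 8.55 and 8.72 after it in the Piedmontese cross. ITGA5 in the Wagyu cross read 9.68, 9.07, 9.11 and 9.33 before birth and 8.87, 8.69, 8.80, 8.62, 8.79 and 8.73 after it. Its columns spanned 8.40 to 9.68 and all postnatal ones, at 8.40 to 9.01, lay below all fetal ones, at 9.07 to 9.68. The difference between 280 and 60 days was -0.26 ± 0.21 (adjusted p = 0.299) as deposited, but 0.96 after quantile normalisation and 0.96 after centring. Its postnatal minus fetal difference passed at -0.54 ± 0.10, and was 0.06 and 0.08 under these scalings. ITGAV, the chain of vitronectin receptors, passed as lower at -0.62 ± 0.25 and was 0.59 and 0.61 under the same scalings. Without the Piedmontese 280-day column it was -0.17 (adjusted p = 0.572), and it also missed the threshold without the Piedmontese 60-day (adjusted p = 0.150) or Wagyu 60-day column (adjusted p = 0.0874).

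ITGA2B, the fibrinogen receptor chain of platelets, had its highest values late in life. ITGA2B read 7.08, 8.01, 8.30 and 6.85 before birth and 7.39, 7.35, 7.51, 7.36, 7.92 and 8.49 after it in the Piedmontese cross. ITGA2B in the Wagyu cross read 7.45, 7.31, 7.71 and 7.42 before birth and 7.15, 6.59, 7.79, 7.49, 8.10 and 8.27 after it. Fetal and postnatal columns overlapped, and the columns of 30 months were above those of 3 months in both crosses. It rose by 1.11 ± 0.30 between 3 and 30 months (adjusted p = 0.0165), missing the threshold without the Piedmontese 30-month (adjusted p = 0.0999), Wagyu 30-month (adjusted p = 0.0958) or Wagyu 3-month column (adjusted p = 0.150). On the shared slides of 3 and 20 months its difference was 0.16 ± 0.30 (adjusted p = 0.846). Between 60 and 280 days the difference of ITGA2B was -0.13 ± 0.30 as deposited (adjusted p = 0.737) but 1.20 after quantile normalisation (adjusted p = 0.000295) and 1.101 after centring (adjusted p = 0.000384).

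ITGA9 and ITGA4, which bind matrix proteins and vascular adhesion molecules, both passed as lower at 280 days. ITGA9 fell by 2.13 ± 0.23 (adjusted p = 2.95e-07), after a rise of 0.95 ± 0.23 between 135 and 195 days. It was the only gene of the 62 to pass in the step from 12 to 20 months, where it fell by 0.94 ± 0.23 (adjusted p = 0.0399, where 1.95% of all rows were lower), and at 25 months it rose by 1.29 ± 0.23 against 20 months, across a change of slides. ITGA4 fell by 1.29 ± 0.38, with -0.13 in the Piedmontese and -2.45 in the Wagyu cross. Without the Wagyu 60-day column its difference was -0.34 (adjusted p = 0.327), and without the Wagyu 280-day column -0.95 (adjusted p = 0.0991). Both genes lay below the lower quartile of the array in most columns, ITGA9 in 15 and ITGA4 in 19 of 20. ITGB8, a partner of ITGAV, and ITGB3, the partner of ITGA2B, were as dim, below that quartile in 12 and 19 columns. ITGB8 passed as lower prenatally (-0.82 ± 0.32), though 0.41 after centring, and ITGB3 did not pass (0.12 ± 0.34, adjusted p = 0.778, and 1.35 with adjusted p = 0.00146 after centring). The ITGB8 call ended without the Piedmontese 280-day (adjusted p = 0.145), Piedmontese 60-day (adjusted p = 0.188) or Wagyu 280-day column (adjusted p = 0.0644).

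The 3 leukocyte integrins passed in different comparisons as deposited. After centring all 3 were higher at 280 than at 60 days and had a higher postnatal than fetal mean, and after quantile normalisation 2 of 3 did in each. ITGAL, the alpha chain of the lymphocyte integrin that binds ICAM1, was lowest at 60 days. ITGAL read 3.57, 6.73, 7.96 and 5.12 before birth and 6.94, 7.02, 7.45, 6.71, 6.86 and 5.995 after it in the Piedmontese cross. ITGAL in the Wagyu cross read 3.90, 6.08, 7.80 and 5.99 before birth and 6.95, 7.29, 6.78, 6.58, 6.54 and 6.13 after it. Values climbed to 195 days, were lower at 280 days in both crosses and lay between 5.995 and 7.45 after birth. A second, dimmer row rose by 0.83 prenatally (adjusted p = 0.00433). That row differed by 0.22 across birth (adjusted p = 0.497) and by 0.38 between 3 and 30 months (adjusted p = 0.241). In the brighter row ITGAL rose by 1.82 ± 0.30 between 60 and 280 days (adjusted p = 4.38e-05) and by 1.39 ± 0.30 from there to 3 months (adjusted p = 0.00274). Without the Piedmontese 280-day column the second rise was 0.89 (adjusted p = 0.0523). ITGAL fell by 0.88 ± 0.30 between 3 and 30 months (adjusted p = 0.0446), and this missed the threshold with any of the 4 columns left out, with adjusted p of 0.199 without Piedmontese 30 months, 0.156 without Wagyu 30 months, 0.113 without Piedmontese 3 months and 0.231 without Wagyu 3 months. The postnatal mean rose by 0.88 ± 0.14 against the fetal mean (adjusted p = 1.66e-05), and without the 60-day columns the difference was 0.16 (adjusted p = 0.359).

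ITGB2, the beta chain of ITGAL and ITGAM, passed in 0 of the 4 comparisons, with a prenatal difference of -0.47 ± 0.28 (adjusted p = 0.159) and a birth difference of 0.18 ± 0.28 (adjusted p = 0.658). The prenatal difference of ITGB2 was 0.73 after quantile normalisation (adjusted p = 0.0415) and 0.75 after centring (adjusted p = 0.0346), and its postnatal minus fetal difference, -0.10 ± 0.13 as deposited, was 0.48 after quantile normalisation (adjusted p = 0.00550) and 0.52 after centring (adjusted p = 0.00359), so neither has a settled direction. ITGAM, the alpha chain of macrophages and neutrophils, rose by 0.98 ± 0.22 between 3 and 30 months (adjusted p = 0.00693). That call ended without the Piedmontese 30-month (adjusted p = 0.0522), Wagyu 30-month (adjusted p = 0.0761) or Wagyu 3-month column (adjusted p = 0.0987). Of 6 measured leukocyte markers, 5 rose from 280 days to 3 months, CD3E (a T cell receptor subunit) by 2.41 ± 0.28, and 0 passed between 3 and 30 months. Whether leukocyte content had a part in the integrin differences was not tested.

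Of the genes that carry an ITGB symbol without being integrin chains, ITGB1BP2 (melusin, a muscle protein that binds the tail of ITGB1) peaked sharply at 195 days. Its mean was 8.67 at 60, 10.41 at 135, 12.49 at 195 and 9.35 at 280 days. ITGB1BP2 rose by 1.74 ± 0.34 and 2.08 ± 0.34 over the steps to 135 and 195 days and fell by 3.13 ± 0.34 after them. Its postnatal mean fell by 0.83 ± 0.16 against the fetal mean, but the difference was -0.08 without the 195-day columns (adjusted p = 0.653). ITGBL1, a secreted protein with integrin-like repeats, fell by 2.70 ± 0.28 between 60 and 280 days (adjusted p = 1.99e-07). ITGB1BP1, an adaptor that restrains ITGB1, passed as lower (-0.999 ± 0.25), though the difference was 0.23 after centring and -0.59 without the Piedmontese 280-day column (adjusted p = 0.0527).

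Among type I cadherins, the group of the epithelial, neural and muscle forms, CDH2, CDH3 and CDH15 fell between 60 and 280 days and CDH1 and CDH4 did not pass, and all 5 were lower after birth than before it, also under both scalings. CDH15, M-cadherin, is the cadherin of myoblasts and satellite cells. CDH15 read 15.44, 15.92, 15.73 and 13.73 before birth and 13.01, 12.89, 12.87, 12.68, 11.79 and 12.92 after it in the Piedmontese cross. CDH15 in the Wagyu cross read 16.19, 16.63, 15.65 and 14.004 before birth and 12.63, 12.44, 12.44, 12.67, 11.78 and 12.63 after it. The columns fell into 3 ranges without overlap, 15.44 to 16.63 at 60 to 195 days, 13.73 to 14.004 at 280 days and 11.78 to 13.01 after birth. CDH15 fell by 1.95 ± 0.29 between 60 and 280 days (adjusted p = 1.41e-05) and by 1.05 ± 0.29 between 280 days and 3 months (adjusted p = 0.0132). The birth difference was -0.83 without the Wagyu 3-month column (adjusted p = 0.146) and -0.90 without the Wagyu 280-day column (adjusted p = 0.0801). All 4 measured muscle precursor markers fell between 60 and 280 days, among them MYF5 by 4.54 ± 0.33 and MYOG by 4.08 ± 0.32. From 280 days to 3 months MYOG rose by 1.80 ± 0.32 and MYOD1 by 1.81 ± 0.57, and MYF5 differed by 0.65 ± 0.33 without passing. CHRND (a subunit of the muscle acetylcholine receptor) fell by 2.14 ± 0.54. Their part in the CDH15 change was not tested.

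CDH2, N-cadherin of nerve and mesenchyme, had the largest prenatal fall of the 62 genes. CDH2 read 13.84, 10.56, 7.05 and 4.94 before birth and 5.06, 5.17, 4.93, 5.17, 5.57 and 5.54 after it in the Piedmontese cross. CDH2 in the Wagyu cross read 13.06, 9.02, 7.05 and 5.61 before birth and 5.24, 4.95, 4.99, 6.22, 6.04 and 6.88 after it. Each fetal step was downward in both crosses and the 280-day columns lay within the postnatal range. CDH2 fell by 8.18 ± 0.47 (adjusted p = 1.33e-10). Between 3 and 30 months it differed by 1.07 ± 0.47 without passing (adjusted p = 0.113), with 0.48 in the Piedmontese and 1.65 in the Wagyu cross. CDH3, P-cadherin of epithelia, fell by 2.27 ± 0.23 (adjusted p = 1.18e-07). CDH1, E-cadherin, rose by 1.79 ± 0.24 between 60 and 135 days, fell by 1.57 ± 0.24 between 195 and 280 days and was -0.26 ± 0.24 overall (adjusted p = 0.385). That overall difference of CDH1 was 0.35 after quantile normalisation (adjusted p = 0.128) and 0.97 after centring (adjusted p = 0.000532). CDH4, R-cadherin, differed by -0.36 ± 0.23 (adjusted p = 0.191), but by 0.94 after quantile normalisation (adjusted p = 0.000201) and 0.87 after centring (adjusted p = 0.000323). CDH4 was lower by a difference of -0.83 ± 0.23 at 3 months than at 280 days, a call that ended without the Wagyu 3-month column (adjusted p = 0.144).

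The 15 type II and other cadherins held 10 genes that fell between 60 and 280 days and 4 that rose, with 4 higher and 8 lower after quantile normalisation and 4 higher and 6 lower after centring. CDH11, the cadherin of mesenchyme and bone-forming cells, fell almost as far as CDH2. CDH11 read 14.78, 12.12, 10.02 and 5.97 before birth and 7.01, 7.25, 6.68, 6.92, 7.02 and 7.16 after it in the Piedmontese cross. CDH11 in the Wagyu cross read 14.57, 11.77, 10.58 and 7.04 before birth and 7.43, 7.32, 7.25, 6.89, 7.53 and 7.30 after it. Values from 280 days on, at 5.97 to 7.53, lay below all earlier ones, at 10.02 to 14.78. CDH11 fell by 8.17 ± 0.28 between 60 and 280 days (adjusted p = 3.39e-13), and the birth difference of 0.71 ± 0.28 did not pass (adjusted p = 0.0688). The postnatal mean fell by 3.71 ± 0.13 against the fetal mean, and without the 60-day columns the difference was -2.44. All 5 fibroblast markers fell over the prenatal span, LUM (a proteoglycan of connective tissue) by 7.65 ± 0.43 and COL1A1 by 3.33 ± 0.43. The 280-day mean of that list was 11.83 in Piedmontese and 13.02 in Wagyu, and its part in the change of CDH11 was not tested.

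CDH7, known from neural crest and the nervous system of chick embryos, had the largest difference between postnatal and fetal means. CDH7 read 11.62, 11.88, 9.46 and 4.97 before birth and 5.16, 5.46, 4.82, 5.17, 5.11 and 4.64 after it in the Piedmontese cross. CDH7 in the Wagyu cross read 11.17, 11.003, 9.34 and 5.55 before birth and 5.72, 5.29, 5.08, 4.77, 5.05 and 4.69 after it. Columns from 280 days on, at 4.64 to 5.72, lay below all earlier ones, at 9.34 to 11.88. CDH7 fell by 6.13 ± 0.29 between 60 and 280 days and its postnatal mean fell by 4.30 ± 0.13 against the fetal mean (adjusted p = 2.02e-14). CDH24 fell by 4.20 ± 0.26, CDH6 by 3.95 ± 0.39, CDH10 by 3.36 ± 0.29 and CDH18 by 2.67 ± 0.26 over the prenatal span, with adjusted p of at most 1.06e-07. CDH17, known from intestinal epithelium, fell by 1.995 ± 0.35 (adjusted p = 8.03e-05), but rose by 1.33 ± 0.35 over the first step.

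CDH12, a type II cadherin of brain, was lower at 280 than at 60 days and lower again at 3 months. CDH12 read 6.26, 4.86, 4.86 and 5.07 before birth and 4.20, 4.25, 4.07, 3.71, 4.40 and 4.68 after it in the Piedmontese cross. CDH12 in the Wagyu cross read 6.71, 4.94, 4.81 and 5.05 before birth and 3.83, 3.94, 4.03, 3.80, 4.44 and 4.75 after it. Postnatal columns, at 3.71 to 4.75, did not overlap with fetal ones, at 4.81 to 6.71. CDH12 fell by 1.42 ± 0.21 between 60 and 280 days (adjusted p = 1.42e-05), though after centring the difference was -0.19 (adjusted p = 0.379). It fell by 1.05 ± 0.21 between 280 days and 3 months (adjusted p = 0.00176), a call that held with each of the 4 columns left out. A second, dimmer row had a prenatal difference of -1.10 (adjusted p = 0.0145) and a birth difference of -0.39 (adjusted p = 0.440). CDH20, another type II cadherin, also fell at birth with each column left out, by 1.03 ± 0.20 (adjusted p = 0.00133). These 2 genes and PCDH12 were the 3 genes of 18 whose birth call held with each column left out and under both scalings.

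CDH22 and CDH13 rose between 60 and 280 days, where most of the genes studied were lower as deposited. CDH22, a cadherin known from brain, was one of the 2 genes, with ITGB4, whose higher postnatal than fetal mean held with each age left out. CDH22 read 4.19, 3.71, 4.47 and 6.36 before birth and 6.59, 6.76, 6.32, 6.14, 6.27 and 6.28 after it in the Piedmontese cross. CDH22 in the Wagyu cross read 3.70, 3.41, 4.48 and 6.43 before birth and 6.60, 6.36, 6.61, 6.44, 6.59 and 6.30 after it. All columns from 280 days on, at 6.14 to 6.76, stood above all earlier ones, at 3.41 to 4.48. CDH22 rose by 2.45 ± 0.23 between 60 and 280 days (adjusted p = 6.74e-08), of which 1.92 ± 0.23 came in the step after 195 days. CDH13, T-cadherin, is tethered to the membrane by a lipid anchor and binds adiponectin. CDH13 read 11.14, 13.07, 13.94 and 12.96 before birth and 12.82, 12.99, 12.67, 12.46, 12.80 and 12.70 after it in the Piedmontese cross. CDH13 in the Wagyu cross read 11.41, 13.03, 14.01 and 13.32 before birth and 12.85, 12.68, 12.95, 12.63, 13.29 and 13.02 after it. The 60-day columns were the lowest and the 195-day columns the highest, with postnatal columns between them. CDH13 rose by 1.87 ± 0.21 between 60 and 280 days (adjusted p = 6.47e-07).

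The remaining cadherins had prenatal calls that rested on single columns, or did not pass. The postnatal mean of CDH23 fell by 1.03 ± 0.13 and that of CDH26 fell by 1.02 ± 0.13 against the fetal mean, and both calls held with each age left out and under both scalings. A second row of CDH23 had a difference of -0.11 in that comparison and did not pass (adjusted p = 0.400). CDH16, a cadherin of kidney, passed as higher at 280 days (0.87 ± 0.35) and CDH20 likewise (0.51 ± 0.20). The CDH16 call ended without the Piedmontese 280-day (adjusted p = 0.124), Wagyu 280-day (adjusted p = 0.112) or Piedmontese 60-day column (adjusted p = 0.362). The CDH20 call ended without the Piedmontese 280-day (adjusted p = 0.135), Piedmontese 60-day (adjusted p = 0.171) or Wagyu 60-day column (adjusted p = 0.0660). CDH26 passed as lower (-0.75 ± 0.28) but was 0.49 after quantile normalisation and 0.48 after centring, and its call ended without the Piedmontese 280-day (adjusted p = 0.469) or Wagyu 60-day column (adjusted p = 0.170). CDH23, a cadherin of inner ear hair cells, had means of 4.27 at 60, 7.24 at 195 and 3.58 at 280 days, with a peak at 195 days. It passed as lower at 280 than at 60 days (-0.69 ± 0.29) but was 0.54 after centring and 0.15 in a second row of the gene, and the call ended without the Wagyu 280-day (adjusted p = 0.264), Piedmontese 60-day (adjusted p = 0.176) or Wagyu 60-day column (adjusted p = 0.0740). CDH8 did not pass (-0.51 ± 0.36, adjusted p = 0.240). Of these 15 genes, 8 lay below the lower quartile of the array in at least 10 of 20 columns.

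**Figure D4:**
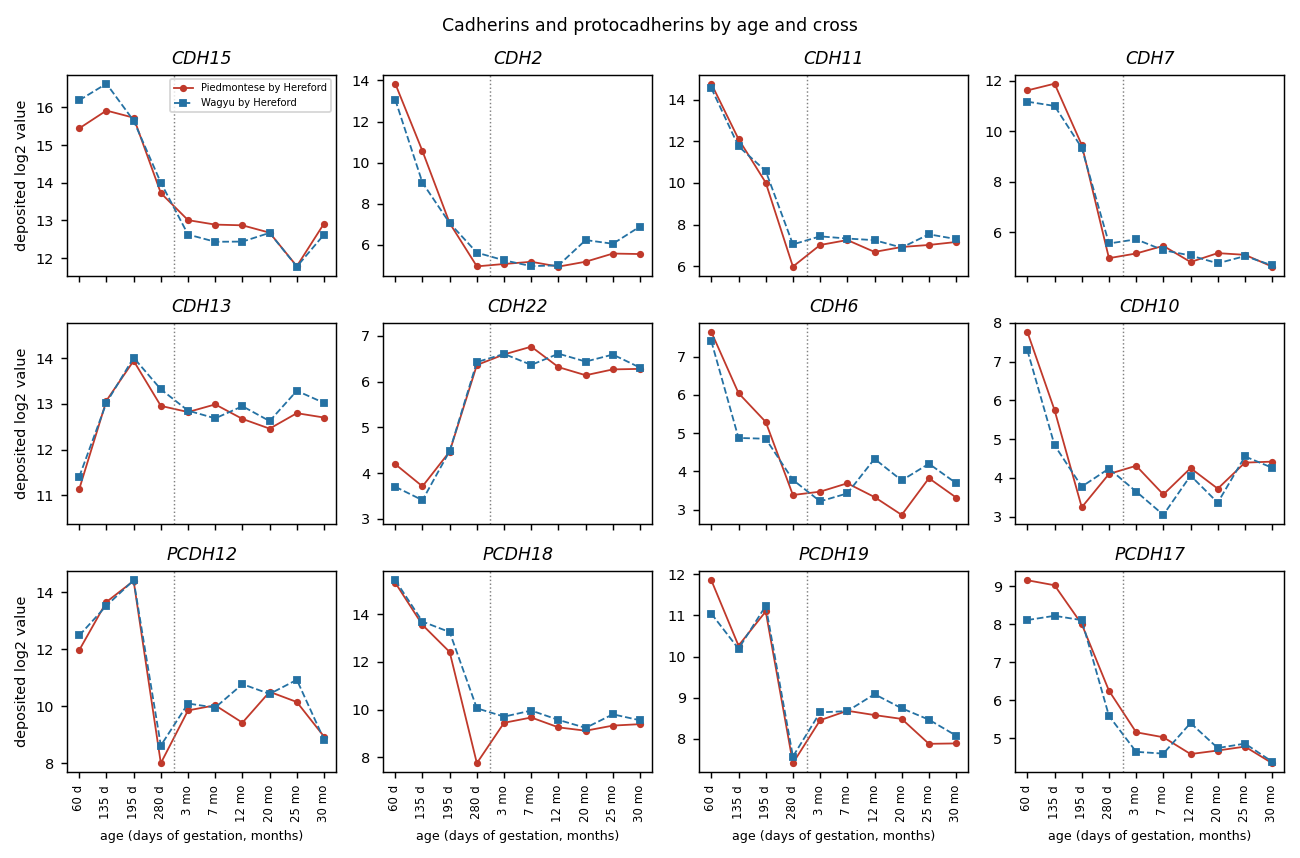
Deposited log2 values (vertical axes, each gene on its own scale) of cadherins and protocadherins by age (horizontal axes, 60 days of gestation to 30 months), with Piedmontese by Hereford as red circles and Wagyu by Hereford as blue squares; points are single columns without an error, and the dotted line marks birth. CDH2, CDH11 and PCDH18 descend through gestation, CDH7 descends after 135 days, PCDH12 stands at 7.998 and 8.62 at 280 days, against 14.40 and 14.43 at 195 days, and CDH22 rises to a plateau.

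Of the 8 protocadherins outside the gene clusters, 6 fell between 60 and 280 days, PCDH15 rose and PCDH1 did not pass, with 2 higher and 4 lower under either scaling. PCDH18 fell most. PCDH18 read 15.33, 13.56, 12.42 and 7.75 before birth and 9.45, 9.67, 9.25, 9.11, 9.33 and 9.39 after it in the Piedmontese cross. PCDH18 in the Wagyu cross read 15.43, 13.70, 13.25 and 10.06 before birth and 9.71, 9.96, 9.57, 9.23, 9.80 and 9.55 after it. Values from 280 days on, at 7.75 to 10.06, lay below all earlier ones, at 12.42 to 15.43, and the Piedmontese 280-day column was the lowest of all. PCDH18 fell by 6.48 ± 0.39 between 60 and 280 days (adjusted p = 2.10e-10). The difference was -7.57 in the Piedmontese and -5.38 in the Wagyu cross.

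PCDH12 is the protocadherin of vascular endothelium. PCDH12 read 11.97, 13.66, 14.40 and 7.998 before birth and 9.85, 10.03, 9.42, 10.51, 10.15 and 8.93 after it in the Piedmontese cross. PCDH12 in the Wagyu cross read 12.48, 13.53, 14.43 and 8.62 before birth and 10.09, 9.95, 10.78, 10.43, 10.93 and 8.83 after it. Both crosses climbed to 195 days, were lowest at 280 days and lay between 8.83 and 10.93 after birth. PCDH12 rose by 1.37 ± 0.31 from 60 to 135 days, and the step from 195 to 280 days, where it fell by 6.11 ± 0.31, was the largest step of any of the 62 genes. From 280 days to 3 months it rose by 1.67 ± 0.31 (adjusted p = 0.000966), and this held with each column left out and under both scalings. It fell by 1.09 ± 0.31 between 3 and 30 months (adjusted p = 0.0211), and in the step from 25 to 30 months it fell by 1.66 ± 0.31 (adjusted p = 0.00705, where 0.619% of all rows were lower). The fall from 3 to 30 months missed the threshold without the Wagyu 30-month (adjusted p = 0.211), Piedmontese 3-month (adjusted p = 0.0808) or Wagyu 3-month column (adjusted p = 0.129). On the slides shared by 3 and 20 months the difference was 0.50 ± 0.31 (adjusted p = 0.428). The endothelial marker list, averaged over the crosses, was 9.69, 10.81, 11.42 and 9.18 at 60, 135, 195 and 280 days and 9.57 at 3 months. It stood at 9.34 in both crosses at 30 months, against 8.85 in Piedmontese and 9.44 in Wagyu at 25 months. The part of this list in the PCDH12 changes was not tested.

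PCDH19, known for its part in the nervous system, fell by 3.96 ± 0.27 prenatally (adjusted p = 8.02e-10) and rose by 1.06 ± 0.27 from 280 days to 3 months (adjusted p = 0.00757), the rise ending without the Wagyu 3-month column (adjusted p = 0.0608). PCDH17, another protocadherin of the nervous system, fell by 2.71 ± 0.34 (adjusted p = 1.83e-06), and all its postnatal columns, at 4.35 to 5.40, lay below all fetal ones. PCDH8, known in mouse from the mesoderm beside the neural tube, fell by 2.23 ± 0.52 (adjusted p = 0.00125), and this call was lost with quantile normalisation (adjusted p = 0.110) and after centring (adjusted p = 0.125). Without the Piedmontese 60-day column its difference was -1.04. PCDH20 passed as lower (-0.96 ± 0.32) and was 0.27 after centring, below the lower quartile of the array in all 20 columns, and its call ended without the Wagyu 280-day (adjusted p = 0.188) or Wagyu 60-day column (adjusted p = 0.0640). PCDH15, a partner of CDH23 in hair cells, rose by 0.86 ± 0.25 (adjusted p = 0.00630), a call that ended without the Piedmontese 60-day column (adjusted p = 0.0729). PCDH1 was 0.49 ± 0.21 as deposited (adjusted p = 0.0543), and passed as higher at 1.76 after quantile normalisation (adjusted p = 2.16e-06) and 1.72 after centring (adjusted p = 1.44e-06).

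The clustered protocadherins are encoded in tandem arrays of similar genes, so a probe may also bind a neighbour's RNA and the values are uncertain as to the gene. PCDHA13 fell by 3.55 ± 0.42 between 60 and 280 days (adjusted p = 8.71e-07). PCDHGB4 was named for its changes after birth. PCDHGB4 read 4.69, 4.66, 4.89 and 4.40 before birth and 3.63, 4.41, 4.44, 3.24, 4.70 and 4.55 after it in the Piedmontese cross. PCDHGB4 in the Wagyu cross read 4.996, 4.45, 4.62 and 4.69 before birth and 3.13, 3.78, 4.48, 3.82, 4.64 and 4.59 after it. The 3-month columns were low in both crosses, and fetal and postnatal columns overlapped. It fell by 1.17 ± 0.26 from 280 days to 3 months (adjusted p = 0.00365) and rose by 1.20 ± 0.26 from 3 to 30 months (adjusted p = 0.00544), 2 comparisons that share the 3-month columns. The fall ended without the Wagyu 3-month column (adjusted p = 0.0708) and the rise without that column (adjusted p = 0.114) or the Wagyu 30-month column (adjusted p = 0.0674). On the slides shared by 3 and 20 months its difference was 0.15 ± 0.26 (adjusted p = 0.830). PCDHB1 and PCDHB11 also passed as higher at 30 than at 3 months, at 0.87 ± 0.24 and 1.09 ± 0.34, and both lay below the lower quartile of the array in 19 of 20 columns. The PCDHB1 call ended without the Piedmontese 30-month (adjusted p = 0.143), Wagyu 30-month (adjusted p = 0.0828) or Wagyu 3-month column (adjusted p = 0.169), and the PCDHB11 call with any of the 4 columns left out (adjusted p from 0.0669 without Piedmontese 3 months to 0.236 without Wagyu 3 months). Prenatally PCDHB1 and PCDHGC3 passed as lower (-0.73 ± 0.24 and -0.55 ± 0.21), and after centring these were 0.50 and 0.68. The PCDHB1 call ended without the Wagyu 280-day (adjusted p = 0.123), Piedmontese 60-day (adjusted p = 0.0576) or Wagyu 60-day column (adjusted p = 0.0544), and that of PCDHGC3 without the Piedmontese 280-day (adjusted p = 0.118) or Wagyu 60-day column (adjusted p = 0.198).

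Among the steps between neighbouring ages, those before birth held most of the calls. From 60 to 135 days 10 genes rose and 14 fell, against 7.56% and 12.0% of all rows. From 135 to 195 days 11 rose and 7 fell, against 5.47% and 9.48%. The step from 195 to 280 days held the most calls of any step, with 33 of 62 genes falling and 3 rising (ITGB4, CDH22 and CDH4), against 33.6% of all rows lower and 14.2% higher. For that step 14 were higher and 31 lower after quantile normalisation, and 18 were higher and 24 lower after centring. Between 3 and 7 and between 7 and 12 months 0 genes passed with limma, against 1.27% and 1.66% of all rows, and with an unadjusted p under 0.05 there were 4 and 3. Between 20 and 25 months, across a change of slides, 8 genes rose and 0 fell, against 8.71% and 0.261% of all rows. Of those 8 genes, 8 lay below the lower quartile of the array in at least 8 of 20 columns.

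Calls among the 11 genes higher and the 3 genes lower at 30 than at 3 months were seldom stable. These ages also lie on different slides. Of the 11, 1 held with each column left out, and 9 lay below the lower quartile of the array in at least 4 columns. Without the Wagyu 30-month column 1 gene was higher, without the Wagyu 3-month column 1 and without the Piedmontese 30-month column 3. On the slides shared by 3 and 20 months, 1 of 62 genes was higher and 3 were lower (LAMB3 higher, and ITGA9, ITGAV and ITGB4 lower), against 0.913% and 3.96% of all rows. The remaining genes of the 11 were CDH3 (0.74 ± 0.23), CDH12 (0.70 ± 0.21), CDH20 (0.86 ± 0.20) and ITGB8 (0.99 ± 0.32). Without the Wagyu 3-month column the adjusted p was 0.146 for CDH3, 0.305 for CDH12, 0.114 for CDH20 and 0.345 for ITGB8. Without the Wagyu 30-month column it was 0.255 for CDH3, 0.185 for CDH12, 0.0922 for CDH20 and 0.193 for ITGB8. Without the Piedmontese 30-month column it was 0.0650 for CDH3, 0.110 for CDH12 and 0.120 for ITGB8, and without the Piedmontese 3-month column 0.0996 for CDH3. None of these 4 calls thus held in every setting.

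Birth calls leaned on single columns as well. With limma, 7 genes were higher and 11 lower at 3 months than at 280 days, and 1 of the 7 and 2 of the 11 held with each column left out. Without the Piedmontese 280-day column 3 genes were higher, and without the Wagyu 3-month column 4 were higher and 3 lower. Without the Wagyu 280-day column 5 genes were lower, and without the Piedmontese 3-month column 6. Among the genes not described above, CDH3 fell by 0.81 ± 0.23, CDH26 by 0.92 ± 0.28, LAMA1 by 0.84 ± 0.24, PCDH17 by 1.02 ± 0.34 and PCDH1 by 0.62 ± 0.21. CDH23 rose by 0.87 ± 0.29, with a difference of -0.35 in its second row (adjusted p = 0.324), and ITGBL1 rose by 0.80 ± 0.28. Each of these 7 calls ended on leaving out some column. Without the Wagyu 280-day column the adjusted p was 0.0990 for CDH3, 0.279 for CDH26, 0.103 for LAMA1, 0.0649 for PCDH1 and 0.188 for CDH23. Without the Piedmontese 280-day column it was 0.193 for PCDH17, 0.122 for PCDH1 and 0.220 for ITGBL1. Without the Wagyu 3-month column it was 0.0643 for CDH3, 0.243 for CDH26, 0.206 for PCDH17, 0.222 for PCDH1, 0.191 for CDH23 and 0.105 for ITGBL1, and without the Piedmontese 3-month column 0.0698 for CDH3, 0.122 for LAMA1, 0.0658 for PCDH17, 0.0788 for PCDH1, 0.0756 for CDH23 and 0.176 for ITGBL1.

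Between the postnatal and the fetal mean, CDH16 and PCDH15 passed as higher (0.39 ± 0.16 and 0.26 ± 0.11) and CDH8 as lower (-0.45 ± 0.17). Without the 60-day columns the adjusted p was 0.241 for CDH16, 0.267 for PCDH15 and 0.0720 for CDH8. The calls of CDH16 and PCDH15 each ended on leaving out any of 6 of the 10 ages, and that of CDH8 on any of 3.

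The crosses were compared within ages, and both lie on the same arrays. With limma 0 of 62 genes passed for Piedmontese minus Wagyu, against 0.279% of all rows, and 9 had an unadjusted p under 0.05. The smallest adjusted p was 0.223, that of ITGA10. Differences ran from -0.50 for PCDH18 to 0.60 for PCDH8, with 26 genes above and 36 below 0. The 95% interval lay within 0.5 log2 units of 0 for 48 genes and within 1 for 61, the exception being PCDH8. For these genes the interval excludes a difference larger than its bound, while a smaller one may be present.

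ITGA10 was higher in the Piedmontese cross at 9 of 10 ages, by 0.44 ± 0.13 over all ages. Among the 6 postnatal ages alone, ITGA10 averaged 6.18 in Piedmontese and 5.57 in Wagyu columns, a difference of 0.61 ± 0.14 (adjusted p = 0.0360, where 1.86% of all rows passed). It was the 1 gene of 62 that passed there, and Piedmontese was above Wagyu at 6 of 6 ages. PCDH18 was lower in Piedmontese at 10 of 10 ages, with a difference of -0.50 ± 0.17 (adjusted p = 0.379), and its 280-day columns differed most, at 7.75 in Piedmontese and 10.06 in Wagyu. LAMA4 was lower in Piedmontese at 9 of 10 ages, with -0.36 ± 0.17 (adjusted p = 0.603), as was ITGB1BP2, with -0.42 ± 0.15 (adjusted p = 0.406). None of these 3 passed. PCDH8 rested on few ages, with 8.73 in Piedmontese and 5.99 in Wagyu at 60 days and 5.94 in Piedmontese and 4.33 in Wagyu at 280 days.

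For the muscle laminin and its receptor, none of the cross differences passed. The difference of LAMA2 was 0.03 ± 0.15, with a 95% interval of -0.30 to 0.35. LAMB1 differed by -0.04 ± 0.12, with a 95% interval of -0.28 to 0.21. The difference of LAMB2 was -0.08 ± 0.12, with a 95% interval of -0.32 to 0.16. These 3 intervals hold 0 and reach less than 0.5 to either side. LAMC1 differed by -0.05 ± 0.11, with a 95% interval of -0.28 to 0.18. ITGA7 differed by -0.26 ± 0.12, with a 95% interval of -0.53 to -0.00053. ITGB1 differed by -0.14 ± 0.09, with a 95% interval of -0.33 to 0.05. Piedmontese stood below Wagyu at 8 of 10 ages for ITGA7. Whether the cross difference itself differed between the postnatal and the fetal ages was tested on its 10 values, and 0 of 62 genes passed with limma (0.0186% of all rows), with 4 at an unadjusted p under 0.05 and a smallest adjusted p of 0.624. Those 4 were CDH15, CDH2, CDH6 and PCDH17.

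The spread of the cross differences varied with age. The SD of the per-age cross difference over the 62 genes was 0.70, 0.54, 0.36 and 0.60 at 60, 135, 195 and 280 days, and it lay between 0.28 and 0.47 at the postnatal ages, a range that holds the value of 195 days. Whether this spread differs between fetal and postnatal ages was not tested. Each column stands for 3 animals before birth and 4 after it. Dyes were balanced after birth, with 2 Piedmontese samples in each dye, and unbalanced before it. At 60 and 280 days the dye Cy3 labelled 2 Piedmontese samples and Cy5 labelled 1, and at 135 and 195 days the split was turned round. A cross difference at a single fetal age therefore cannot be told apart from a dye effect. The residual of the model is shared over all ages.

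**Figure D5:**
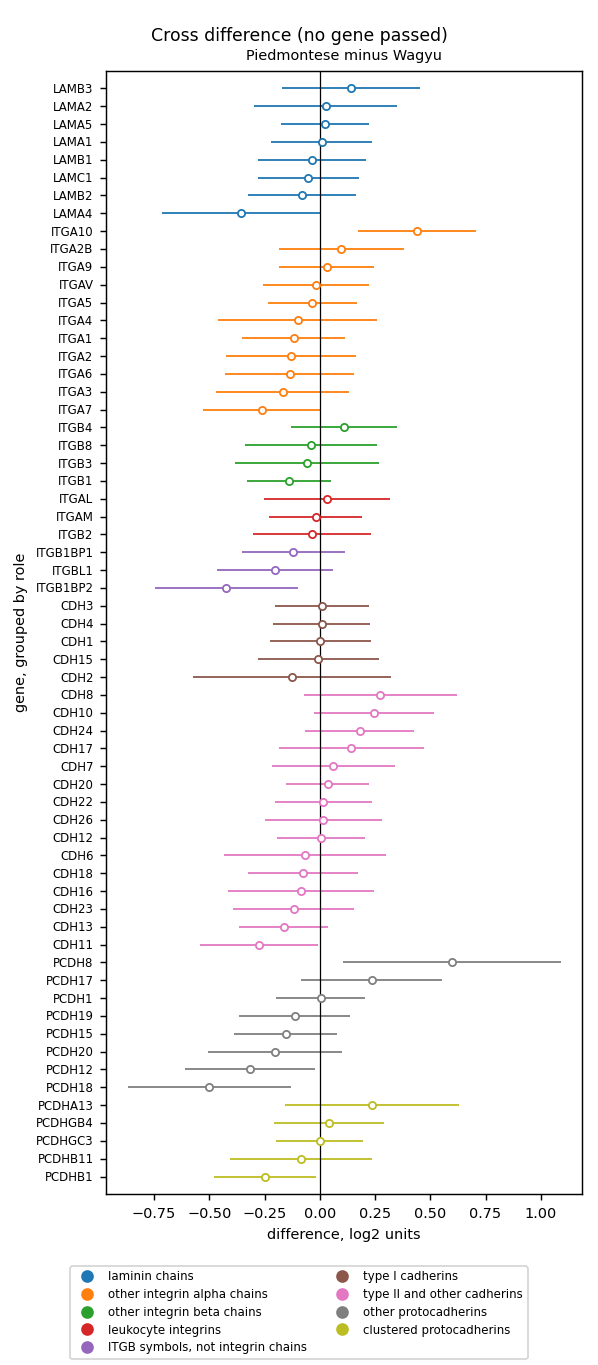
Difference between the crosses, Piedmontese minus Wagyu, in log2 units over 10 ages (horizontal axis) for the 62 genes (vertical axis, grouped by role and ordered by size); points are limma estimates, bars are 95% intervals, colours mark the role, and open points did not pass. All points lie between -0.50 and 0.60.

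Proteins that work with these adhesion genes were taken from lists of known partners. Of 10 measured basement membrane partners (14 listed) all 10 fell between 60 and 280 days, COL18A1 (the precursor of endostatin) by 5.82 ± 0.24, with 0 higher and 7 lower after quantile normalisation. From 280 days to 3 months 3 rose, COL15A1 (a collagen of muscle and vessel basement membranes) by 2.92 ± 0.23. From 3 to 30 months AGRN (agrin, the organiser of the neuromuscular junction) rose by 1.09 ± 0.26 and COL15A1 fell by 0.98 ± 0.23. Of 12 interstitial integrin ligands, 9 fell before birth, POSTN (periostin) by 11.17 ± 0.42, and ICAM1, the ligand of ITGAL, rose by 1.15 ± 0.22. Across birth 5 of them rose, FN1 (fibronectin) by 2.26 ± 0.34, and 2 fell, THBS1 (thrombospondin) by 2.28 ± 0.56. Between 3 and 30 months 3 fell, COL1A1 (also on the fibroblast list) by 2.01 ± 0.43, and VTN (vitronectin) rose by 1.06 ± 0.32.

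Inside the cell, the integrin adaptors were split between 60 and 280 days, with 4 of 14 higher and 3 lower, and 8 higher and 3 lower after quantile normalisation. NRAP, an adaptor of the muscle-tendon junction and of growing myofibrils, rose by 6.68 ± 0.36, and LIMS1 (PINCH) fell by 2.13 ± 0.29. Across birth LIMS1 rose by 1.34 ± 0.29 and its relative LIMS2 fell by 2.29 ± 0.39. Between 3 and 30 months TNS1 (tensin) rose by 1.38 ± 0.25 and TLN2, the talin of muscle, fell by 0.99 ± 0.27. Of 8 measured genes of the dystroglycan and sarcoglycan complex, the other link of laminin to the fibre, 3 rose and 4 fell before birth. DTNA (dystrobrevin) rose by 3.27 ± 0.25 and SGCE, the sarcoglycan also found outside muscle, fell by 4.25 ± 0.24. Across birth SGCD rose by 1.62 ± 0.28 and DTNA fell by 0.89 ± 0.25, and between 3 and 30 months SGCD fell by 0.91 ± 0.28.

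Catenins link cadherins to actin. Of 8 measured, 5 fell before birth and CTNNA3 (the alpha catenin of heart and muscle) rose by 2.18 ± 0.35. CTNND2 fell most, by 5.66 ± 0.38, and after quantile normalisation 3 were higher and 4 lower. Across birth JUP (plakoglobin) rose by 1.21 ± 0.27, and between 3 and 30 months 0 of 8 passed with limma. Of 10 measured cadherin relatives outside the rule, 7 fell before birth, FAT1 by 5.98 ± 0.27, and RET rose by 1.69 ± 0.22. At 3 months CELSR3 was lower than at 280 days by a difference of -0.74 ± 0.23, and between 3 and 30 months FAT2 rose by 0.71 ± 0.23 and FAT1 fell by 0.82 ± 0.27. No partner or marker gene passed for the cross. The postnatal mean was above the fetal mean for 1 and below it for 8 of the basement membrane partners, 1 and 10 of the ligands, 6 and 5 of the adaptors, 4 and 4 of the dystroglycan and sarcoglycan genes, 1 and 7 of the catenins and 0 and 7 of the other cadherin relatives.

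At 280 days against 60 days, 36 of these genes were lower and 11 higher as deposited. The split was 27 lower and 20 higher after quantile normalisation, and 22 lower and 27 higher after centring. Marker lists of other cell types also moved over these ages. The mean of 3 markers of dividing cells was 2.86 to 3.51 at 280 days and 8.88 to 11.51 in the columns of 60 to 195 days. The fibroblast list lay at 11.83 to 13.02 at 280 days, against 15.20 to 16.70 at 60 to 195 days. For the surface epithelium list the ranges were 5.24 to 5.46, against 5.61 to 9.40, with the highest values at 60 days. The cartilage list lay at 4.36 to 4.60, against 5.89 to 12.23. The adipocyte list was 3.10 in Piedmontese and 3.69 in Wagyu at 60 days, 11.07 in Piedmontese and 9.77 in Wagyu at 135 days and 11.61 in Piedmontese and 12.68 in Wagyu at 30 months. Their part in the differences of the adhesion genes was not tested.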

How the data were processed

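Longissimus dorsi RNA of 2 cattle crosses was measured on 2-colour Agilent arrays, with both crosses of 1 age on each array. Per the labels, scans were read with Agilent Feature Extraction, version 8.5.1.1 per the submitters' processing notes. The authors deposited 1 value per array row and for each cross and age (21475 rows, 20 columns), read here as log2 from the range of -0.64 to 21.75. The combining of animals, the normalisation and the log base were not given in the sources used here, and the column medians ran from 5.88 to 7.36. All columns were used and 0 were left aside.

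Array rows were named through the platform annotation, in which 12276 rows had 1 symbol and 9199 had none. The 62 genes were matched by gene ID to the current bovine gene table with 62 of 62 found. A gene with several rows (5 of the 62) was described through its brightest row. With limma 3.58.1 in R 4.3.3, age (10 levels) and cross were fitted to all 20 columns, leaving 9 residual degrees of freedom, with empirical Bayes moderation and Benjamini-Hochberg adjustment over all rows at a threshold of 0.05. The cross by stage test used the 10 differences between crosses, with 8 degrees of freedom. The fit was tested on simulated data. Tables and plots were made with Python 3.11.15, pandas 2.3.3 and matplotlib 3.10.9.

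The genes, partner lists and markers were chosen with earlier results of these data known. Values in every column are printed for up to 3 genes per direction and main comparison, taken by size among those that passed with the same sign in both crosses, and for a set of 12 muscle basement membrane and adhesion genes. From each partner list the gene that moved most among those that passed was named for each direction, and markers were named beside a result. Alternatives were quantile normalisation, centring on the column median, leaving out the 25% of rows with the lowest mean, a trended robust prior, averaging the rows of a gene, fetal or postnatal ages alone, no age block and leaving out single columns or ages. A comparison of 20 with 3 months on shared slides was chosen after seeing the data.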

Additional observations from a re-analysis of the deposited data

How the results depend on the processing

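After quantile normalisation 20 genes were higher prenatally, 5 higher and 10 lower between 3 and 30 months, and 11 had a higher postnatal than fetal mean. After centring 27 were higher and 22 lower prenatally, 18 lower across birth, 6 lower between 3 and 30 months and 19 higher by postnatal mean. Among steps, quantile normalisation gave 1 call between 3 and 7 months, 2 between 12 and 20, 4 between 20 and 25 and 2 between 25 and 30 months, and centring gave 0 between 12 and 20 and 2 between 20 and 25 months. Leaving out the 25% of rows with the lowest mean kept 47 of the 62 genes, with 5 higher between 3 and 30 months. With postnatal ages alone 6 were lower between 3 and 30 months and 1 was higher in Piedmontese. On the slides shared by 3 and 20 months, a comparison chosen after seeing the data, 1 was higher. The cause of these shifts was not tested.

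With single columns left out, 7 to 12 genes were higher and 29 to 31 lower prenatally, 3 to 8 higher and 3 to 8 lower across birth, and 1 to 8 higher and 1 to 2 lower between 3 and 30 months. With single ages left out 2 to 6 were higher and 44 to 48 lower by postnatal mean, and the cross and cross by stage counts were 0 to 0.

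The following differences turned sign and passed before or after the change of setting. Prenatal differences after quantile normalisation were 0.49 for CDH26, 0.94 for CDH4, 1.20 for ITGA2B, 0.96 for ITGA5, 0.59 for ITGAV, 0.73 for ITGB2 and 0.39 for PCDHGC3. After centring they were 0.97 for CDH1, 0.54 for CDH23, 0.48 for CDH26, 0.87 for CDH4, 0.53 for ITGA1, 1.101 for ITGA2B, 0.96 for ITGA5, 0.61 for ITGAV, 0.23 for ITGB1BP1, 0.75 for ITGB2, 0.41 for ITGB8, 0.27 for PCDH20, 0.50 for PCDHB1, 1.13 for PCDHB11, 0.93 for PCDHGB4 and 0.68 for PCDHGC3. Postnatal minus fetal differences after quantile normalisation were 0.33 for CDH13, 0.063 for ITGA5, 0.021 for ITGAV, 0.29 for ITGB1BP1, 0.48 for ITGB2, 0.23 for LAMC1 and 0.072 for PCDH1. After centring they were 0.59 for CDH13, 0.23 for CDH20, 0.17 for CDH8, 0.50 for ITGA2, 0.079 for ITGA5, 0.53 for ITGA7, 0.51 for ITGAM, 0.047 for ITGAV, 0.44 for ITGB1BP1, 0.52 for ITGB2, 0.031 for ITGB3, 0.41 for LAMA5, 0.33 for LAMB2, 0.25 for LAMC1, 0.086 for PCDH1, 0.59 for PCDHB1, 0.48 for PCDHB11 and 0.065 for PCDHGB4. The difference of 30 minus 3 months after quantile normalisation was -0.53 for ITGA9. With single ages left out LAMB2 ran from -0.76 to 0.085 and CDH13 from -0.57 to 0.34, both highest without the 195-day columns. On the shared slides the difference was -0.26 for CDH12, -0.034 for CDH20, -1.04 for ITGA9, 0.50 for PCDH12 and -0.18 for PCDHB1.

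The columns of an age were paired by the age block of the cross comparison, and with no replicate block 0 genes were higher and 0 lower. Arrays give no read depth, and genes near the lower quartile are limited by signal over background.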
